A study of Mus musculus with 10 samples.

Results

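The genes described here are the 5 kainate receptor subunit genes (Grik1, Grik2, Grik3, Grik4 and Grik5), the genes of their 2 auxiliary proteins (Neto1 and Neto2) and the delta glutamate receptor gene Grid1. They were taken by name, and all 8 are among the 55367 genes listed in the files. Each sample was the cytoplasm of 1 inspiratory neuron of the preBötzinger complex (preBötC), the brainstem region that generates the inspiratory rhythm, drawn into a patch pipette in slices from neonatal mice and sequenced as its own library. The 4 neurons labelled Dbx1-derived (samples 1, 5, 6 and 7) came from Dbx1; Ai148 pups, in which Cre expressed from Dbx1 switches on the Ca2+ indicator GCaMP6f in cells with a history of Dbx1, on a C57Bl/6J or mixed C57Bl/6J and CD1 background. The 6 neurons labelled WT (samples 2, 3, 4, 8, 9 and 10) came from CD-1 mice and carry no lineage reporter, so a Dbx1 history was not known for them.

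By recording, samples 4, 5, 6 and 7 were Type-1 neurons, sample 1 was a Type-2 neuron, and samples 2, 3, 8, 9 and 10 were of Unknown type. By the labels, 3 Type-1 neurons and the Type-2 neuron were Dbx1-derived, as the study's text also states. Captions of its figures instead place samples 1 to 6 in CD-1 mice and the rest in Dbx1; Ai148 mice. The labels were used here. Samples 1, 3, 5 and 8 were taken at P0, sample 10 at P1, samples 2 and 9 at P2, and samples 4, 6 and 7 at P3. Since 3 of the 4 Type-1 neurons were Dbx1-derived and all 5 Unknown neurons were WT, electrical type, mouse line and strain background cannot be told apart. The labels name no animal, so neurons may share one, and all values below are descriptions over neurons with no test.

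Kainate receptors are tetrameric ion channels opened by glutamate, found at presynaptic and postsynaptic sites, where they produce slow synaptic currents and tune transmitter release. The subunits GluK1, GluK2 and GluK3, encoded by Grik1, Grik2 and Grik3, can form channels on their own, whereas the high-affinity subunits GluK4 and GluK5, encoded by Grik4 and Grik5, need one of them as a partner. Neto1 and Neto2 are single-pass membrane proteins that bind kainate receptors and slow their gating. The delta receptor GluD1, encoded by Grid1, is related in sequence but acts mainly as a synaptic organizer that binds cerebellins and, through them, presynaptic neurexins.

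The 5 kainate receptor genes are related, and reads that fit several of them could be assigned to the wrong one, so their coding sequences were compared where they are most alike. The 90 coding bases below span the third membrane segment of each subunit, next to the channel pore, read 5′ to 3′ on the coding strand of GRCm38 with GENCODE M21 transcripts. Capitals mark bases that are the same in Grik1 to Grik5.
Grik1, chr16:87935982-87936071, minus strand: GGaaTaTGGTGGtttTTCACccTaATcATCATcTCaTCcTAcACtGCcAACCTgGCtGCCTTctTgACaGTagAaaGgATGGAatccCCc
Grik2, chr10:49240663-49240752, minus strand: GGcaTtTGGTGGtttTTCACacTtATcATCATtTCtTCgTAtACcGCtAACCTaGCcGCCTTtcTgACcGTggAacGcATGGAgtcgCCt
Grik3, chr4:125694006-125694095, plus strand: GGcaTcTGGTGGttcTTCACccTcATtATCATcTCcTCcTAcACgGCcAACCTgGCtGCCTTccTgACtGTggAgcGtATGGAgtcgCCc
Grik4, chr9:42543842-42547574, minus strand: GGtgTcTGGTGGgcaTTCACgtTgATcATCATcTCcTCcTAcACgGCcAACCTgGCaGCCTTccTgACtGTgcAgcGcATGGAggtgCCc
Grik5, chr7:25015892-25022448, minus strand: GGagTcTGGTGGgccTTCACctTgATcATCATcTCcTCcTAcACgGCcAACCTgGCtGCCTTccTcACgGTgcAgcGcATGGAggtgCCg

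In Grik4 and Grik5 this stretch runs across an intron, so the coordinates span 3733 and 6557 bases. Of the 90 positions, 58 (64.4%) held the same base in all 5 genes. Grik4 and Grik5 were the most alike, with 83 equal bases, and Grik2 and Grik5 the least, with 65. Over the whole coding sequences, the longest run of bases shared by any of the 28 pairs of the 8 genes was 38, between Grik3 and Grik5, in this stretch. The reads were 150 bases long, so no coding run of a read's length was shared between members. This comparison was chosen after the values below were known.

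On GRCm38, Grik1 lies at chr16:87895900-88290265 and Grik2 at chr10:49094833-49788766, both on the minus strand. Grik3 lies at chr4:125490700-125714173 on the plus strand, Grik4 at chr9:42518135-42944493 and Grik5 at chr7:25009849-25072346, both on the minus strand. Neto1 lies at chr18:86394952-86506718 on the plus strand, Neto2 at chr8:85636588-85700924 on the minus strand, and Grid1 at chr14:34820108-35583379 on the plus strand. All 8 are protein coding. Exons of 4 other annotated genes overlap members. Gm24420 in Grik4 and Gm27617 in Grid1 had 0 fragments in all 10 neurons, Mir8109 shares 20 bases with Neto2 on the opposite strand and had 16 fragments, all in 1 neuron, and the antisense gene AC113599.1 shares 219 exon bases with Neto1. The library kit does not mark strand, so reads of Neto1 and of this antisense gene cannot be told apart.

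Library totals ran from 21392146 to 36629393 fragments on genes. The 8 neuronal marker genes summed to 761 to 4670 FPKM (fragments per kilobase of gene and per 1e+06 counted fragments) in 9 neurons and to 58.4 FPKM in sample 4. The 8 microglial markers summed to 16798 FPKM in sample 4, to 2203 in sample 2 and to between 1.2 and 560 in the others. Astrocyte markers were highest in samples 3, 4, 2 and 8, at 6392, 5120, 3504 and 2180 FPKM, against 151 to 778 elsewhere. The library labelled Type-1 in sample 4 is therefore given by its label only, and the series describes samples 1 to 4 as low in cDNA.

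Grik5, which encodes the high-affinity subunit GluK5, had the highest mean level of the 8 genes, 15 ± 14.1 FPKM (SD, n = 10 neurons). Its level was 27.2 FPKM in sample 1, 43.9 in sample 2, 0.00621 in sample 3, 2.1 in sample 4, 17.5 in sample 5, 9.4 in sample 6, 4.32 in sample 7, 2.02 in sample 8, 18.9 in sample 9 and 24.4 in sample 10. Thus Grik5 stood at 1 FPKM or more in 9 of 10 neurons, including sample 4, and sample 3 had a single fragment of it. Without sample 4 its mean was 16.4 FPKM. Some 16546 genes reached 1 FPKM in 1 neuron or more, and 15.4% of these did so in at least 9 neurons.

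Grik4, which encodes the other high-affinity subunit, GluK4, was at 1.52 FPKM in sample 1, 1.37 in sample 5, 14 in sample 6 and 2.65 in sample 7. It was at 0 FPKM in samples 2 and 3, 0.0171 in sample 4, 0.0126 in sample 8, 0.813 in sample 9 and 0.0055 in sample 10. These 6 neurons, all below 1 FPKM, were the WT neurons, and the 4 above it were the Dbx1-derived ones. The mean was 2.04 ± 4.31 FPKM (SD, n = 10), and sample 6 alone held 68.7% of the summed FPKM. A neuron with over 50% of a gene's summed FPKM was common in these libraries, at 48.5% of the 16546 genes.

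Among the subunits that form channels alone, Grik2, which encodes GluK2, was the most widely detected. Its level was 0.551 FPKM in sample 1, 0.0125 in sample 2, 18.4 in sample 3, 0.0205 in sample 4, 3.93 in sample 5, 16.3 in sample 6, 2.83 in sample 7, 13.7 in sample 8, 3.14 in sample 9 and 1.03 in sample 10. Samples 3, 6 and 8 formed a high set, 4 neurons lay between 1.03 and 3.93 FPKM, and 3 of the 4 low-cDNA samples lay below 1. The mean was 5.99 ± 7.21 FPKM (SD, n = 10).

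Grik1, which encodes GluK1, was present at intermediate levels in a few neurons and nearly absent from the rest. It was at 4.77 FPKM in sample 2, 11.6 in sample 5, 3.77 in sample 7 and 9 in sample 8. The remaining values were 0.0278 FPKM in sample 1, 0.0539 in sample 9 and 0 in samples 3, 4, 6 and 10. No neuron lay between 0.0539 and 3.77 FPKM, so Grik1 split the 10 neurons into 4 with it and 6 with 8 fragments or fewer. Its mean was 2.92 ± 4.3 FPKM (SD, n = 10).

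Grik3, which encodes GluK3, had 0 fragments in every library. A count of 0 allows up to 3 fragments per library, which for a gene of this length is 0.00913 to 0.0156 FPKM. Of all listed genes, 61.7% had no fragment in any of the 10 neurons, so a count of 0 throughout was common.

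The auxiliary gene Neto1 was at 10.5 FPKM in sample 2, 10.5 in sample 5, 6.19 in sample 6, 7.7 in sample 7 and 3.16 in sample 10. It was at 0.0168 FPKM in sample 1, 0.0115 in sample 3, 0.0163 in sample 4, 0.505 in sample 8 and 0.038 in sample 9. Neto1 therefore reached 1 FPKM in 5 neurons, among them the 3 Type-1 neurons that were Dbx1-derived, with a mean of 3.87 ± 4.46 FPKM (SD, n = 10).

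Neto2 was at 6.73 FPKM in sample 3, 5.43 in sample 5, 1.54 in sample 6, 36.7 in sample 7, 7.71 in sample 8 and 16.4 in sample 10. It was at 0.0381 FPKM in sample 1, 0 in sample 2, 0.00554 in sample 4 and 0.0148 in sample 9. Samples 1, 4 and 9 thus had neither auxiliary gene at 1 FPKM, and sample 7 held 49.2% of the summed Neto2 FPKM. The mean was 7.46 ± 11.5 FPKM (SD, n = 10).

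Grid1 was at 5.52 FPKM in sample 6, 5.03 in sample 8, 12.7 in sample 9 and 1.81 in sample 10. It was at 0.298 FPKM in sample 1, 0 in sample 2, 0.00538 in sample 3, 0 in sample 4, 0.224 in sample 5 and 0 in sample 7. The 4 neurons at 1 FPKM or more were 1 Type-1 and 3 Unknown neurons, and the mean was 2.56 ± 4.16 FPKM (SD, n = 10).

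By mean FPKM, a measure per gene length, the order was Grik5, Neto2, Grik2, Neto1, Grik1, Grid1, Grik4 and Grik3. Each neighbouring pair of means in this order differed by less than the larger SD over neurons. That SD is the spread of single neurons and not the error of a mean, so the order of the genes above Grik3 was not tested. The last place of Grik3 rests on 0 fragments in all 10 neurons.

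**Figure D1:**
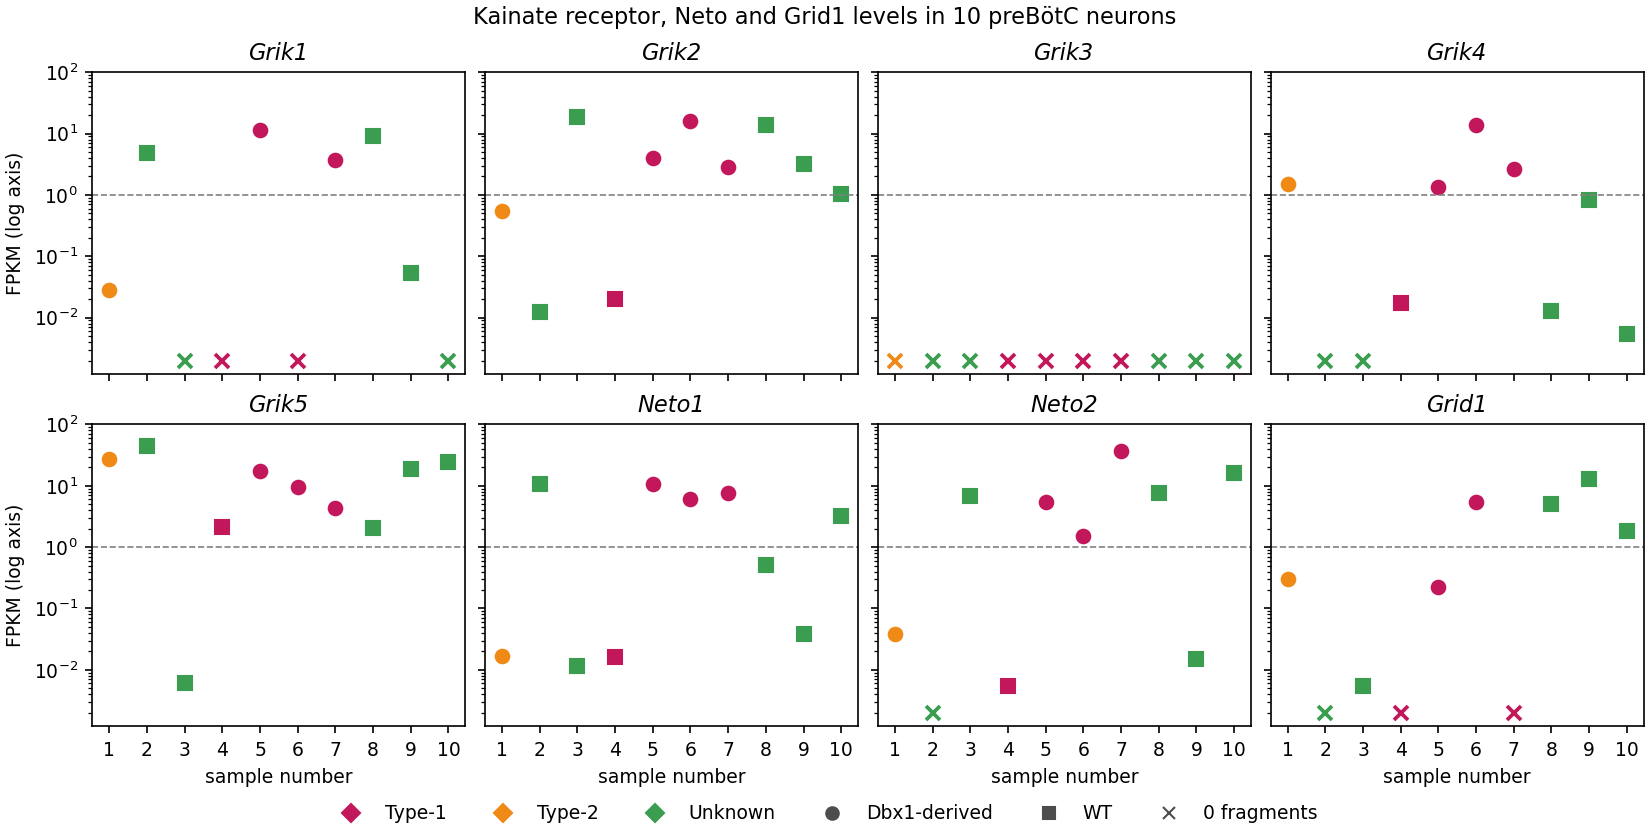
FPKM of the 8 genes in each of 10 neurons (log axis), 1 point per neuron, coloured by electrical type and shaped by cell type label, with crosses at the bottom for 0 fragments and a dashed line at 1 FPKM. Grik5 lies above the line in 9 neurons, Grik3 has 0 fragments in all 10, and the other 6 genes lie above the line in 4 to 7 neurons, with 5 values between 0.224 and 0.813 FPKM below it.

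The low values were set against the fragments that a library may hold from the other 9. From 790 genes nearly private to 1 library, a library held a median of 0.00707% and at most 0.157% of another library's fragments. Of the 80 member values, 20 were at 0 fragments, 21 were below 1 FPKM with at least 1 fragment, and 39 were at 1 FPKM or more. Of the 21, 16 were within the upper limit of a 95% Poisson interval set around the count expected from the other libraries. That limit is loose at small expected counts, as for Grik4 in sample 8, with 2 fragments against 0.197 expected. The 5 that exceeded it were Grik2 in sample 1, with 156 fragments against 5.96 expected, Grik4 in sample 9, with 107 against 2.48, Neto1 in sample 8, with 112 against 4.86, Grid1 in sample 1, with 38 against 0.0113, and Grid1 in sample 5, with 49 against 2.58. Each of the 39 values at 1 FPKM or more rested on at least 194 fragments and on at least 20.8 times the expected count.

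**Figure D2:**
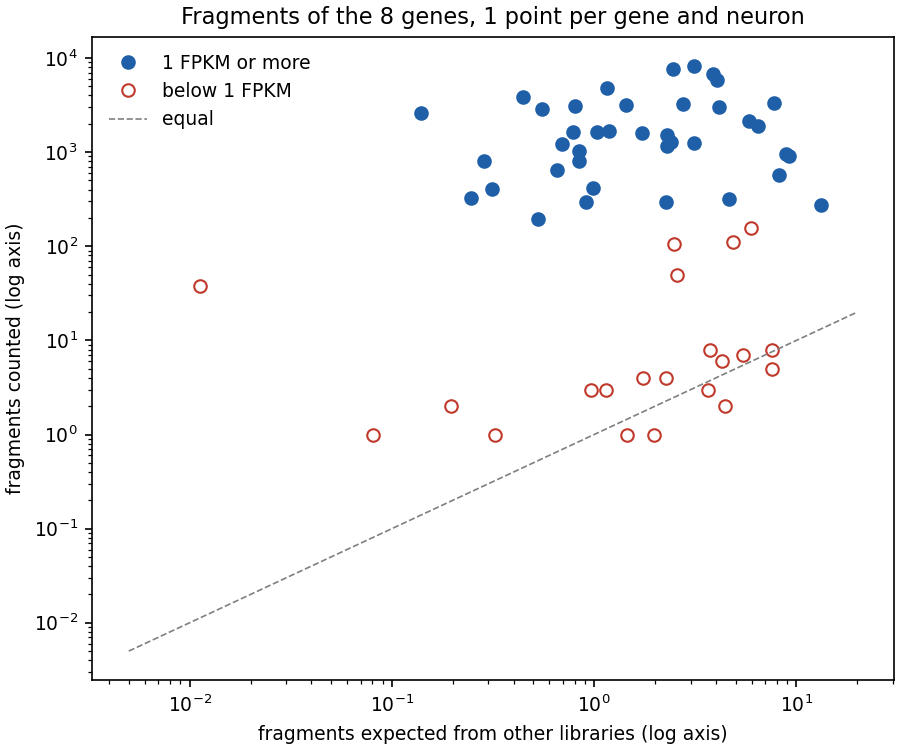
Fragments counted against fragments expected from the other libraries (both log axes), 1 point for each gene and neuron with at least 1 fragment and an expected count above 0. The 39 filled points (1 FPKM or more) lie at 194 fragments or more, while 16 of the 21 open points (below 1 FPKM) lie at 8 fragments or fewer and 5 lie at 38 or more. The dashed line marks equal counts.

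The number of the 8 genes at 1 FPKM or more differed between neurons. It was 2 in sample 1, 3 in sample 2, 2 in sample 3, 1 in sample 4, 6 in each of samples 5, 6 and 7, 5 in sample 8, 3 in sample 9 and 5 in sample 10. The 39 of 80 values compare with 13.4% of all gene and neuron pairs over the listed genes, and with 45% over the 16546 genes that reached 1 FPKM in any neuron. Of all listed genes, 9.15% reached 1 FPKM in sample 1, 10.2% in sample 2, 9.13% in sample 3, 12.3% in sample 4, 16.7% in sample 5, 15.9% in sample 6, 15.7% in sample 7, 16.8% in sample 8, 12% in sample 9 and 16.7% in sample 10. The 3 neurons with 6 genes were the Dbx1-derived Type-1 neurons, while the neurons with 3 or fewer were samples 1 to 4 and sample 9. These 5 neurons also had the 5 lowest shares of all listed genes, so the count of members moved with the count of all detected genes, and the part of this in the result was not tested.

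A channel-forming subunit gene (Grik1, Grik2 or Grik3) reached 1 FPKM in 8 of 10 neurons, and a high-affinity subunit gene (Grik4 or Grik5) in 9. Both kinds were present in 7 neurons. Samples 1 and 4 had a high-affinity subunit gene with no channel-forming one at 1 FPKM, although sample 1 had the 156 fragments of Grik2 given above. Sample 3 had Grik2 at 18.4 FPKM with neither Grik4 nor Grik5. Grik4 was found only beside Grik5, in 4 neurons, but Grik5 itself reached 1 FPKM in 9 of 10 neurons. Grik1 and Grik2 were found together in 3 (samples 5, 7 and 8).

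At least 1 Neto gene reached 1 FPKM in 7 neurons, and each of these 7 also had Grik1 or Grik2, which 8 of 10 neurons had. Both Neto genes were present in 4 neurons (samples 5, 6, 7 and 10). A channel-forming subunit, a high-affinity subunit and a Neto gene were all present in 6 neurons (samples 2, 5, 6, 7, 8 and 10). Sample 9 had Grik2 and Grik5 with neither Neto gene.

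The summed FPKM of Grik1 to Grik5 was 29.3 in sample 1, 48.7 in sample 2, 18.4 in sample 3, 2.13 in sample 4, 34.3 in sample 5, 39.7 in sample 6, 13.6 in sample 7, 24.8 in sample 8, 22.9 in sample 9 and 25.4 in sample 10. Sample 4, the library with the lowest neuronal markers, had the lowest sum, and the other 9 lay within a range of 13.6 to 48.7. Grik5 was the highest of the 5 genes in 7 neurons and held over 50% of the sum in 6, with 92.8% in sample 1, 90.2% in sample 2, 98.2% in sample 4, 50.9% in sample 5, 82.5% in sample 9 and 95.9% in sample 10. Grik2 was the highest in samples 3, 6 and 8, where Grik5 held 0.0337%, 23.7% and 8.15%. Grik1 reached at most 36.4% of the sum, in sample 8, and Grik4 at most 35.4%, in sample 6. These shares and ranks depend on the gene lengths in FPKM, 13246 bases for Grik2 and 5168 for Grik5. By fragments over all neurons, Grik2 had 23585 and Grik5 23240. In sample 7, counted above for Grik5, Grik2 had 962 fragments, Grik1 650 and Grik5 573.

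The 4 neurons with high Slc17a6, the vesicular glutamate transporter of brainstem excitatory neurons (samples 5, 6, 7 and 8, at 101 to 230 FPKM), had mixed make-ups, with no gene above 55.4% of the sum. Samples 1 and 10, with Gad1, the GABA-synthesizing enzyme, at 71.8 and 92 FPKM, were made up almost wholly of Grik5. Sample 3, with Gad1 at 37.2 FPKM, was made up almost wholly of Grik2. Samples 2, 4 and 9 had Slc17a6 at 0.157 to 1.85 FPKM and Gad1 at 0.0356 FPKM or less. They were also mostly Grik5, at the shares given above, so a high Grik5 share was found with and without Gad1. Sample 8 had Gad1 at 8.28 FPKM beside its high Slc17a6. The other GABAergic or glycinergic marker genes followed Gad1 only in part. Gad2 was at 43.5, 22.9 and 34.2 FPKM in samples 1, 3 and 10, but also at 2.53 in sample 4 and 5.14 in sample 7. Slc6a5 was at 146, 0.0401 and 8.6 FPKM in samples 1, 3 and 10. Slc32a1 was highest in sample 2, at 5.95 FPKM, and at 0.375 or less elsewhere. This grouping by transmitter genes was made after the values were seen.

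**Figure D3:**
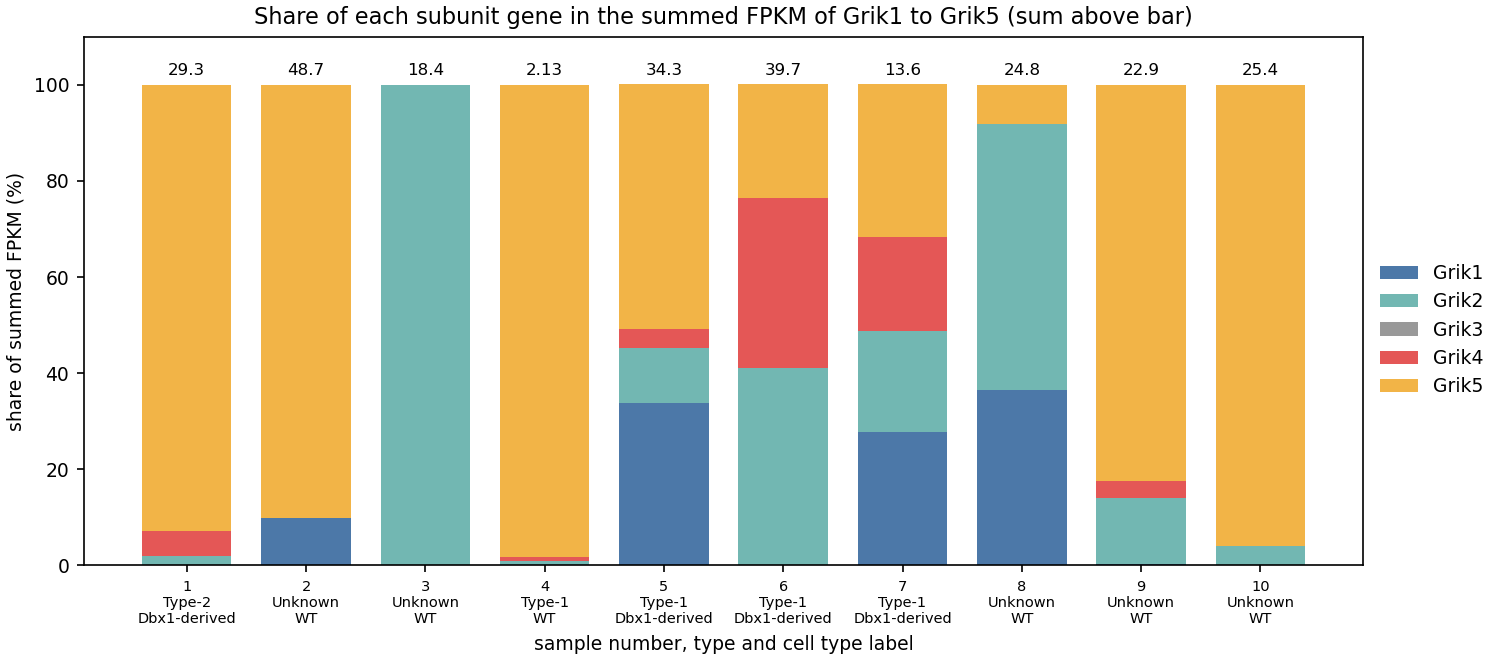
Share of each subunit gene in the summed FPKM of Grik1 to Grik5 (%), 1 bar per neuron, with the sum in FPKM above the bar and the electrical type and cell type label below it. Grik5 holds over 50% in 6 neurons, Grik2 in samples 3 and 8, and Grik4 is visible mainly in samples 1, 5, 6, 7 and 9.

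The AMPA receptor genes Gria1 to Gria4, which encode the fast glutamate receptors, gave another picture in samples 2, 3 and 4. Their summed FPKM was 0.316 in sample 2, 0.263 in sample 3 and 0.291 in sample 4, against 39.3 to 177 in the other 7 neurons, where Gria1, Gria2 and Gria4 were each at 1 FPKM or more. The kainate sum was 154 times the AMPA sum in sample 2, 70 times in sample 3 and 7.33 times in sample 4. In the other 7 neurons it was 0.0767 to 0.582 times the AMPA sum. All 3 neurons with more kainate than AMPA receptor transcript were WT and of the 4 low-cDNA libraries. They had the 3 highest astrocyte marker sums, but in sample 4 Apoe alone made up 4991 of 5120 FPKM. Of the 8 astrocyte markers, 6 reached 1 FPKM in sample 2, 7 in sample 3 and 4 in sample 4. All 8 did so in sample 8, where the AMPA sum was 132 FPKM. Samples 2 and 3 nonetheless had neuronal marker sums of 2066 and 1707 FPKM. The part of low cDNA or of glial RNA in this ratio was not tested, and the comparison was chosen after the values were seen.

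**Figure D4:**
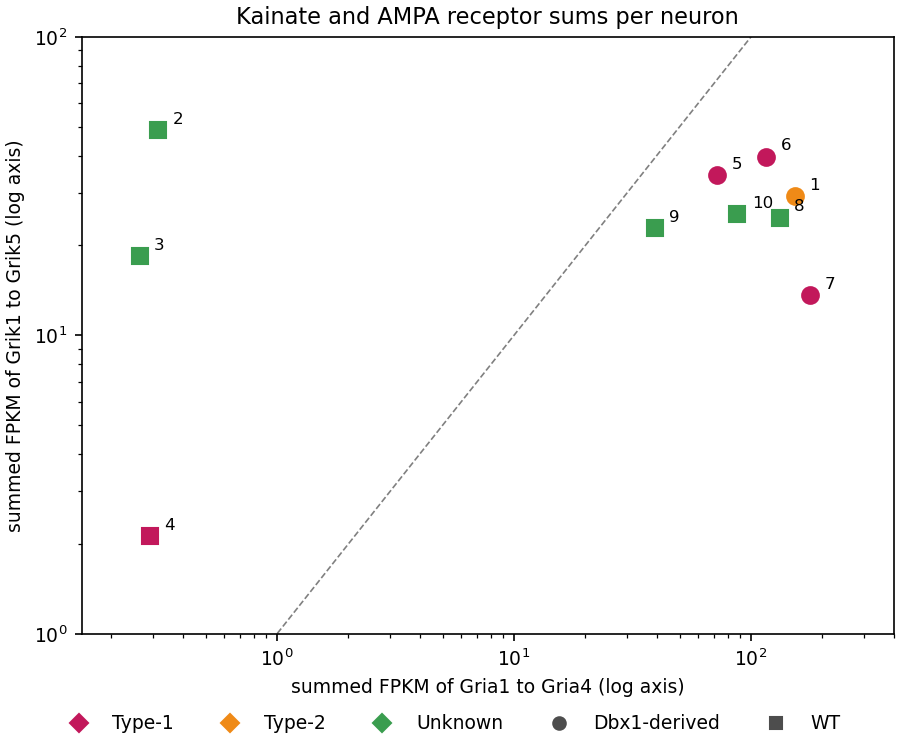
Summed FPKM of Grik1 to Grik5 against summed FPKM of Gria1 to Gria4 (both log axes), 1 numbered point per neuron, coloured by electrical type and shaped by cell type label, with a dashed line where the sums are equal. Samples 2, 3 and 4 lie far to the left, at AMPA sums of 0.263 to 0.316, and the other 7 neurons lie to the right of the line.

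In the NMDA receptor family, Grin1, the obligatory subunit gene, reached 1 FPKM in 7 of 10 neurons, at 5.09 ± 4.71 FPKM (SD), and Grin2b, Grin2d and Grin3a in 5, 6 and 6 neurons. In sample 3, where the AMPA genes were near 0, Grin1 was at 10.5 FPKM beside Grik2 at 18.4.

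Among genes taken as partners of these receptors, the neurexin genes Nrxn2 and Nrxn3 reached 1 FPKM in 7 and 5 neurons. Pick1, whose product binds the tails of glutamate receptors, did so in 7, and Adarb1, the enzyme that edits kainate and AMPA receptor transcripts, in 5. Adarb1 was at 3.93 FPKM in sample 1, 2.99 in sample 5, 5.69 in sample 6, 2.94 in sample 8 and 8.63 in sample 10, and at 0.209 or less in the other 5. Sample 3 therefore had the highest Grik2 level with Adarb1 at 0.0057 FPKM. Of the cerebellin genes, whose products are ligands of delta receptors, Cbln4 was at 50.7 FPKM in sample 1, 74.9 in sample 6, 24.6 in sample 8 and 37.6 in sample 10 and at 0.109 or less elsewhere. Cbln2 was at 46.4 FPKM in sample 10 and at 0.417 or less elsewhere, and Cbln1 had 0 fragments in all 10 neurons. Of the C1q-like genes, whose products bind kainate receptors, C1ql2 had 0 fragments and C1ql3 reached at most 0.0297 FPKM. Klhl17 was not analysed here.

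The first comparison asked whether levels differed between Dbx1-derived and WT neurons. Grik4 stood apart. Its mean log2(FPKM + 1) was 2.09 ± 1.24 (SD, n = 4) in Dbx1-derived and 0.15 ± 0.35 (SD, n = 6) in WT neurons, a difference of 1.94, and the groups did not overlap, at 1.37 to 14 FPKM against 0 to 0.813. It was the only member whose difference exceeded the larger SD. Of the 16546 genes compared, 1.04% were higher in Dbx1-derived neurons without overlap, and Grik4 was the single such gene among the 8 (0.792% of genes were lower without overlap, and no member was). The gap between the groups was narrow, since sample 9 had 107 fragments (95% Poisson interval 87.7 to 129) and sample 5 had 299 (266 to 335). The groups also did not overlap as TPM or in counts thinned to the smallest library. Leaving out 1 neuron cannot make separate groups overlap, so it was no check of this. The difference was 1.33 to 2.22 without 1 neuron, lowest without sample 6. Microglial markers, of which 0 to 6 of 8 reached 1 FPKM in Dbx1-derived and 1 to 8 in WT neurons, summed to 1.2 to 124 FPKM against 26.6 to 16798. Astrocyte markers, of which 2 to 4 and 2 to 8 of 8 reached 1 FPKM, summed to 151 to 518 FPKM against 395 to 6392. Slc17a6 was at 101, 158 and 156 FPKM in Dbx1-derived samples 5, 6 and 7, and at 0.26 in sample 1. Among WT neurons it was at 230 FPKM in sample 8 and at 1.85 or less elsewhere. The low-cDNA libraries were sample 1 among Dbx1-derived and samples 2, 3 and 4 among WT neurons. The part of glial RNA, transmitter type or cDNA in the Grik4 difference was not tested.

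Neto1 was the other member at least 1 log2 unit higher in Dbx1-derived neurons, at 2.38 ± 1.60 (SD, n = 4) against 1.04 ± 1.45 (SD, n = 6) on the log2(FPKM + 1) scale. This difference of 1.34 was within the SDs, and the groups overlapped, since sample 1 was near 0 and sample 2 was level with sample 5. Of all compared genes, 22.5% were at least 1 log2 unit higher in Dbx1-derived neurons and 13.1% lower, against 2 and 0 of the 8 members. Without samples 1 to 4 (chosen after seeing the data), the 3 Dbx1-derived neurons lay at 6.19 to 10.5 FPKM of Neto1 and the 3 WT neurons at 0.038 to 3.16, a difference of 2.27. Without sample 5 the Neto1 difference was 0.95, so 1 member passed, and without sample 10, Grik5 and Neto2 passed as well (4 members). The shares of all genes higher by 1 log2 unit were then 23.5% and 25.7%.

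The remaining members differed less between these groups. On the same scale the differences were 0.75 for Grik5, 0.63 for Neto2, 0.50 for Grik1, 0.37 for Grik2 and -0.47 for Grid1, all within the larger SD. The median over the 8 members was 0.56 and over all compared genes 0.13.

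**Figure D5:**
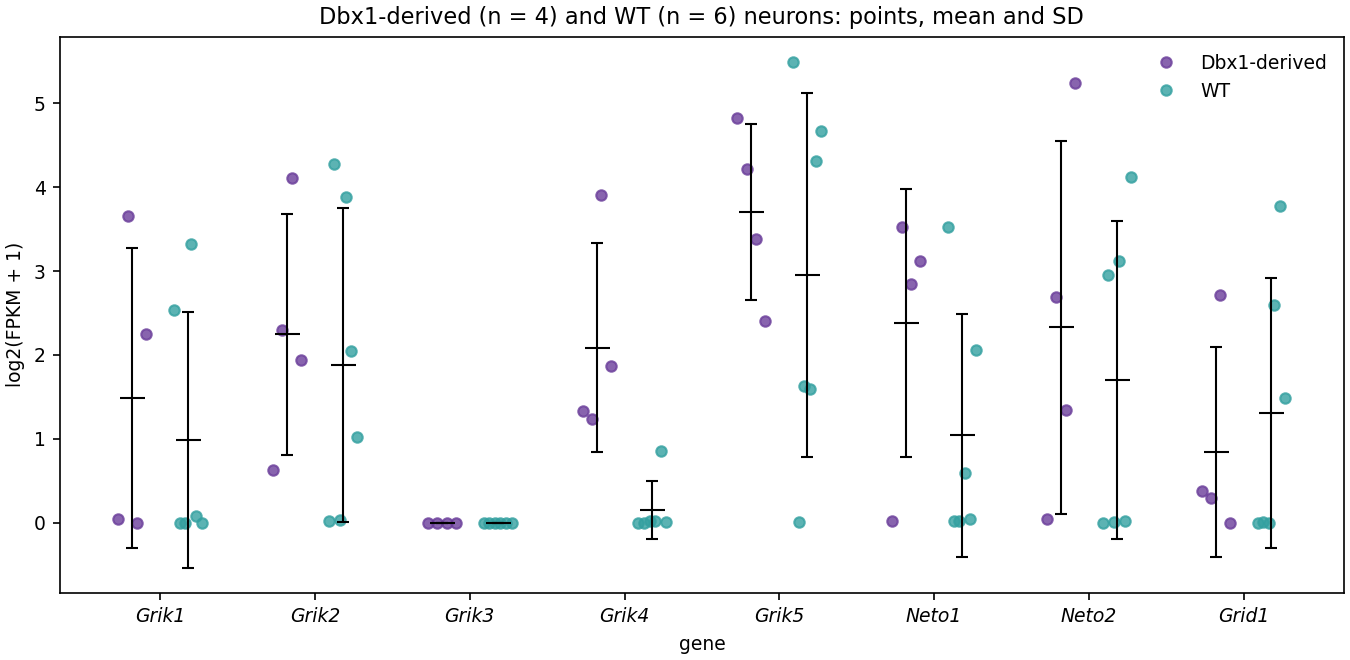
log2(FPKM + 1) of the 8 genes in the 4 Dbx1-derived and 6 WT neurons, with points for neurons, horizontal marks for means and bars for SD. For Grik4 every Dbx1-derived point lies above every WT point, and for the other genes the groups overlap.

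The second comparison set Type-1 against Unknown neurons. Grik4 was 1.59 log2 units higher in Type-1 neurons (1.76 ± 1.62, SD, n = 4, against 0.18 ± 0.38, SD, n = 5) and Neto1 1.13 higher (2.38 ± 1.60 against 1.25 ± 1.52). Both differences were within the larger SD. Among all compared genes 18.1% were at least 1 log2 unit higher and 9.78% lower, against 2 and 0 members. No member was without overlap, where 0.58% of genes were so in the higher and 0.393% in the lower direction. The Type-1 neuron outside the pattern was sample 4, the only WT one, with 0.0171 FPKM of Grik4 and 0.0163 of Neto1. Sample 4 also had neuronal markers at 58.4 FPKM and microglial markers at 16798 FPKM, so it counts as Type-1 by its label only. Without it Grik4 did not overlap, with a difference of 2.16, while Neto1 differed by 1.92 and Neto2 passed as well, at 1.05 (3 members). The share of all genes at least 1 log2 unit higher was then 25.9%, and the share without overlap is not given. This setting sets Dbx1-derived Type-1 against WT Unknown neurons, so it repeats part of the first comparison. Without sample 6 the Grik4 difference was 0.87 and that of Neto1 0.98, so that no member passed, against 18.6% of all genes. Without samples 1 to 4, both comparisons reduce to the same 6 neurons. The Type-2 neuron, sample 1, had Grik4 at 1.52 FPKM, like Type-1 samples 5 and 7, and Neto1 at 0.0168.

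The third comparison set neurons of P2 and P3 (n = 5) against P0 (n = 4). Grik2 was lower at the later ages by 1 log2 unit or more, with a mean log2(FPKM + 1) of 1.63 ± 1.70 against 2.77 ± 1.66 (SD) and a difference of -1.15, within the SDs. The other differences ran from -0.88 for Neto2 to 0.87 for Neto1. Among all compared genes 13.8% were at least 1 log2 unit higher and 15.1% lower, against 0 and 1 members, and no member was without overlap, where 0.381% and 0.284% of genes were. The Grik2 difference was -0.74 without sample 2, -0.64 without sample 3, -0.75 without sample 4 and -0.78 without sample 8, so this call rested on each of these neurons. Without sample 2 or sample 3, Grik1 passed instead (-1.17 and -1.37), and without sample 4 or sample 8 no member was lower by that much. Without sample 1 or sample 7, Grik1, Grik2 and Neto2 were, against 18.7% and 18.3% of all genes.

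Across the 10 neurons the 7 detected members did not vary as a block. Over their 21 pairs, Pearson's r of log2(FPKM + 1) ran from -0.56 for Grik2 and Grik5 to 0.55 for Grik1 and Neto1, with a median of 0.13 and 14 pairs above 0. All points share library depth and the cDNA yield of the neuron, so these values are descriptions.

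The genes with the most similar pattern were searched among the 10420 genes that reached 1 FPKM in no fewer than 3 neurons. For Grik4 they were Gm42972 (r = 0.96), Ypel4 (0.95) and Stx16 (0.93), and for Grik5 Rnf214 (0.95), Cdk5r1 (0.93) and Tcta (0.91). For Grik1 they were Gas7 (0.99), Rnasek (0.96) and Epb41l5 (0.94), and for Grik2 Sprn, Frrs1l and Sdccag8 (0.91 each). For Neto1 they were Armc6 (0.98), Rubcn (0.97) and Ppp1r14c (0.96), for Neto2 Ccp110 (0.95), Gm4482 (0.93) and Rab40c (0.93), and for Grid1 Manea (0.98), Gm2446 (0.96) and Gm2436 (0.95). High values are reached easily when 10 points are searched against this many genes. When Spearman's rho replaced Pearson's r, 2 of these 21 genes were still among the 3 most similar, and without sample 4, 12 were.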

How the data were processed

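Single-neuron libraries were made with SMART-Seq v4 and sequenced as paired reads of 150 bases. The authors aligned reads with STAR 2.7.7a to GRCm38 (mm10) and deposited a table of featureCounts fragment counts with no normalization. The FPKM they deposited divides each count by the gene's length in kilobases and by the library's counted fragments over 1e+06, which was checked to within 5.1e-11. The treatment of multi-mapping reads is not given in the sources used here. There were no molecular identifiers, so Poisson intervals and the floor of 3 counts cover counting error only. FastQC 0.11.8 is among the tools in the submitters' processing notes.

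FPKM was used as deposited, with no filter on a member. A gene was called detected at 1 FPKM. Groups were compared as differences of mean log2(FPKM + 1), which understates changes of low genes, and a difference of at least 1 was called, over the 16546 genes that reached 1 FPKM in any neuron. Groups came from the labels. There is no test, since a sample is 1 neuron of an unnamed animal. Genes nearly private to a library had 1000 fragments or more there and up to 2% of that number in any other, a setting taken from earlier work on these data that chose it after seeing values. Rates were trimmed by 5% and needed 20 such genes per library. Scripts were tested on simulated data.

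The genes, lists and comparisons were chosen with earlier results of these data known. The text names all 8 genes, the listed partner genes that reached 1 FPKM in 5 neurons or more, Adarb1, and the 3 genes most correlated with each member. Some genes that this rule names are not reported here. Gria1 to Gria4 sums, transmitter genes beside the subunit shares, Cbln1, Cbln2, Cbln4, C1ql2, C1ql3 and Klhl17 were added after values were seen, as were the sequence comparison, the setting without samples 1 to 4 and the one asking for 10 times the expected count. Positions and coding sequence are from GENCODE M21. A planned comparison of protein sequences was not run. Alternatives were TPM, a pseudocount of 0.1, thinned counts, counts of 1 or 2 set to 0, no filter on low genes, thresholds of 0.1 and 5 FPKM, Spearman correlation, another private-gene setting and leaving out each neuron. Scripts ran under Python 3.11.15 (pandas 2.3.3, NumPy 2.4.6, Matplotlib 3.10.9, SciPy 1.17.1).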

Additional observations from a re-analysis of the deposited data

Results flagged for a closer look

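Over the members, 28 sets of 4 to 6 neurons of a group were examined for a value far from the others. Dixon's criterion was used on the log2(FPKM + 1) scale, and 4 sets held such a value. These were 1 Grik4 value and 1 Grid1 value, each flagged in overlapping groups. The sets share neurons, and where the other values lie near 0 a single detected neuron is readily flagged. The 4 therefore cannot be set against the 1 in 20 that chance gives for a single set of normally distributed values. Grik4 in sample 9 was at 0.813 FPKM, against 0.0126 FPKM in the next of the 5 Unknown neurons (sample 8) and 0.0171 FPKM in the next of the 6 WT neurons (sample 4). Its 107 fragments compared with 2.48 expected from other libraries. Grid1 in sample 6 was at 5.52 FPKM, against 0.224 FPKM in the next of the 4 Type-1 neurons (sample 5) and 0.298 FPKM in the next of the 4 Dbx1-derived neurons (sample 1). The same sample held the highest Grik4 value, 14 FPKM.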

How the results depend on the processing

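Over all results, 495 alternative values were computed, of which 442 stayed within the limits set for calling a value unmoved, 53 moved and 0 called values changed sign. Differences below 1 log2 unit could change sign and still count as unmoved. In Dbx1-derived against WT neurons, Grik1 went from 0.50 to -0.22 without sample 5 and Neto2 from 0.63 to -0.34 without sample 7. Grik2 went from 0.37 to -0.26 without sample 6, and Grid1 from -0.47 to 0.03 without sample 9. Grik4, Neto1 and Grik5 kept their sign without any 1 neuron. In Dbx1-derived against WT neurons the members higher by 1 log2 unit were 4 as TPM, 6 with a pseudocount of 0.1 and 1 to 4 without 1 neuron. The members lower were 0 to 1 without 1 neuron (1 without sample 6) and 1 without samples 1 to 4, a setting chosen after seeing the data, under which 2 members did not overlap. Of all genes, 20.6% to 28.3% were then higher and 10.4% to 16.3% lower without 1 neuron. Without samples 1 to 4, 19.5% were higher and 15.1% lower. In Type-1 against Unknown neurons the members higher were 0 to 3 without 1 neuron (3 without sample 4, 1 without sample 3, 5, 7, 8 or 9 and 0 without sample 6). The members lower were 1 as TPM, 1 with a pseudocount of 0.1, 0 to 2 without 1 neuron (1 without sample 2 or 6, 2 without sample 3) and 1 without samples 1 to 4. The members that did not overlap were 0 to 1 without 1 neuron (1 without sample 4 or sample 9) and 2 without samples 1 to 4. Of all genes, 16.1% to 25.9% were higher and 10.2% to 12.6% lower in this comparison without 1 neuron. Without samples 1 to 4 the shares were again 19.5% and 15.1%. The share of all genes without overlap is not given here for these settings, so the counts of members without overlap have no background beside them. In P2 and P3 against P0 the members higher were 1 as TPM, 3 with a pseudocount of 0.1 and 0 to 3 without 1 neuron (3 without sample 4, 2 without sample 5). The members lower were 3 as TPM, 3 with a pseudocount of 0.1 and 0 to 3 without 1 neuron. Of all genes, 18.7% were then higher and 22.4% lower as TPM, 30.8% and 27.4% with a pseudocount of 0.1, and 11% to 19% higher and 14.1% to 20.6% lower without 1 neuron. The cause of these moves was not tested. As TPM the median difference over all genes shifted by 0.32 in the first comparison and 0.16 in the second, and 35.1% and 28.7% of genes were then higher by 1 log2 unit and 13.6% and 12.3% lower. With a pseudocount of 0.1 the shares higher were 37.7% and 36.7% and the shares lower 26.1% and 20.5%, and the Grik4 difference was 4.34 and 3.32. At a threshold of 5 FPKM, 24 of the 80 values were detected. Asking for 10 times the expected count could remove none of the 39, since their smallest ratio to the expected count was 20.8. Genes of similar pattern numbered 2 by Spearman's rho and 12 without sample 4. With 3000 fragments and 1%, 5 libraries had enough private genes, and the median rate over these was 0.000848% against 0.00739%. No paired analysis was possible because the result comes from no test and the replicate numbers were given in accession order.

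With 10 neurons, 1 per library and no animal named, group differences cover the spread between neurons only. Values of 8 fragments or fewer could not be told apart from fragments of other libraries, and detection at 1 FPKM is limited by the cDNA recovered from a neuron, which a pipette takes in part.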
